A study of Mus musculus with 20 samples.

Results

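The 44 genes described here are interferon-stimulated genes of the mouse, chosen as a list of named symbols that includes antiviral effectors, sensors of foreign nucleic acid, transcription factors, guanosine triphosphatases and parts of the antigen-processing machinery. All 44 of 44 were found among 18194 genes on the array, each read from the brightest of its probe sets (by the mean of the 20 arrays), and all 44 were bright enough to be tested among 13479 genes. The series profiled cell populations purified by flow cytometry, and its stated purpose was to find genes that depend on the transcription factor Ets1 in natural killer (NK) cells. All cells came from bone marrow, and all mice were 8 to 14 weeks old. Wild-type C57bl/6 mice gave 7 populations. The multipotent ones were HSC (hematopoietic stem cells), MPP (multipotent progenitors) and LMPP (multipotent progenitors primed for lymphoid fates), with 2 arrays each. CLP, the common progenitors of lymphocytes, and GMP, the progenitors of granulocytes and monocytes, had 3 arrays each. Pro-B cells, which are early B-lineage cells, and CD4 T cells had 2 arrays each. Mature NK cells came from mice of strain 129 with the genotype Rag2-- Ets1++ (n = 2) or Rag2-- Ets1-- (n = 2). Both NK groups therefore lacked Rag2, a gene needed to rearrange antigen receptors, so their hosts do not make mature B and T cells. Whether replicates are different animals is not stated in the labels. A p-value therefore reflects only the spread between arrays of a group, pooled over the 9 groups, and this spread may be technical. RNA was amplified through a second round of in vitro transcription before hybridization to Affymetrix arrays, and values are given as log2 intensity. In bulk RNA, fewer cells of a type and less RNA per cell cannot be told apart.

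Type I interferons bind a receptor that activates the kinases Jak1 and Tyk2, and a complex that contains Stat2 and Irf9 then binds interferon-stimulated response elements in the promoters of target genes. Interferon gamma, made mainly by T and NK cells, acts through its own receptor and induces an overlapping set that includes the guanylate-binding proteins, the immunity-related GTPases and the immunoproteasome. Some of these genes are also kept on at a low level without infection, including in stem cells.

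The core letters of such elements occur in the promoter windows of several members. The motif GAAA, then any 2 bases, then GAAA was searched on both strands (on the other strand it reads TTTC, any 2 bases, TTTC) in RefSeq promoter windows of assembly GRCm38.p6 that run from 250 bases before to 50 bases after the annotated start. A window was found for 33 of the 44 members, and 17 of the 33 (51.5%) held the letters, against 3.99% of the 27025 genes with a window. The letters CCGGAAGT, a core bound by ETS family factors, lay in the windows of 2 of the 33 (6.06%), Ifih1 and Ifit2, against 4.31% of all genes with a window. A match is a description of the letters and not a measured binding site. The stretches printed below belong to Ifit1 and Ifit1bl1, the 2 members called between the NK genotypes whose window holds the letters, to Rsad2, whose group means spanned one of the widest ranges, and to the 5 further members that hold the motif and lay above all other arrays in CD4 T cells, chosen after their values were seen. Of the 24 members above all other arrays in CD4 T cells, 18 had a window and 7 of these held the letters. Only members with the letters are printed, and a link between the motif and the CD4 T level was not tested. Capitals mark the matches, and each sequence is printed along the strand of its gene.
Ifit1: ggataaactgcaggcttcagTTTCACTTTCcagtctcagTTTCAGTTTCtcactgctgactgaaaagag
Ifit1bl1: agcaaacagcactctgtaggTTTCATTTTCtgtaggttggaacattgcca
Ifit3: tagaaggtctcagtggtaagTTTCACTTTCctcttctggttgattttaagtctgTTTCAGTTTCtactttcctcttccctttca
Rsad2: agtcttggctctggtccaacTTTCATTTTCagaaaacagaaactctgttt
Bst2: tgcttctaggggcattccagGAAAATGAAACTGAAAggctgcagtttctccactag
Trim30a: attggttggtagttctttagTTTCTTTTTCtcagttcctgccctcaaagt
Igtp: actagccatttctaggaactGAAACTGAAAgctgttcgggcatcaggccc
Gbp2: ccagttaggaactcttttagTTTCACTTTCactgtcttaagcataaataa
The stretches lie upstream of the annotated starts at chr19:34640765-34640833 on the + strand for Ifit1, chr19:34602043-34602092 on the - strand for Ifit1bl1 and chr19:34583353-34583436 on the + strand for Ifit3. Those of Rsad2 and Bst2 lie at chr12:26456543-26456592 and chr8:71537567-71537622, both on the - strand. Those of Trim30a, Igtp and Gbp2 lie at chr7:104465200-104465249 on the - strand, chr11:58199502-58199551 on the + strand and chr3:142620584-142620633 on the + strand. Ifit1 and Ifit3 each hold 2 separate matches, Bst2 holds 2 that overlap, and the others hold 1. The match nearest to the start begins 85 bases upstream in Ifit1, 104 in Ifit1bl1 and 34 in Igtp.

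Array medians over all probe sets lay between 3.78 and 4.04. No detection calls were used here; a signal below its array's median is near background, so a difference against it is not an exact size and ranks among such signals carry little information. The mean of each population's marker list was highest on that population's arrays (MPP and LMPP share a list). Cd4 lay at 9.06 and 9.52 in CD4 T cells and at 4.11 to 4.86 on the other arrays, and the NK receptor gene Ncr1 lay at 8.52 to 9.75 in NK cells and at 3.23 to 4.64 elsewhere. The excess of actin 3′ over 5′ signal, which grows as RNA or its amplification products shorten, was 0.98 and 1.23 log2 units in CD4 T cells, 6.44 to 6.68 in GMP and 5.20, 3.26 and 5.27 in CLP arrays 1 to 3. Ets1, the gene targeted in the Ets1-- mice, was read by 4 probe sets, and its signal remained in Ets1-- NK cells on each of them. On the probe set that differed most, it lay at 8.34 and 8.51 in Ets1++ NK cells and at 6.53 and 7.22 in Ets1-- NK cells (difference -1.55 ± 0.31, SE; limma adjusted p = 0.00865 over all probe sets). The position of these probes in relation to the deleted part was not analysed here, so this signal does not check the genotype labels.

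CD4 T cells had the highest level of most members. A moderated F test in limma found that 43 of the 44 varied over the 9 groups at an adjusted p below 0.05, where 78.0% of all tested genes did, so variation as such was common on these arrays; Mx2 was the exception (limma F adjusted p = 0.263). The highest group mean was in CD4 T cells for 30 of 44 members, where 13.7% of tested genes had theirs. It was in HSC for 6 (15.6% of tested genes), in GMP for 3 (13.9%), in CLP for 2 (14.2%) and in LMPP (5.04%), Ets1++ NK cells (13.0%) and Ets1-- NK cells (10.4%) for 1 each. The lowest group mean was in GMP for 12 members (10.3% of tested genes), in Ets1-- NK cells for 11 (9.59%), in CLP for 7 (20.1%), in pro-B cells for 7 (10.9%), in Ets1++ NK cells for 5 (13.4%) and in MPP for 2 (9.86%). The median of the 44 genes was 8.24 and 8.504 on the CD4 T arrays and 7.34 and 7.64 on the HSC arrays. It was 6.66 and 7.20 in MPP, 7.19 and 7.10 in LMPP, 6.05 to 6.48 in CLP, 6.17 to 6.33 in GMP, 6.40 and 6.15 in pro-B cells, 6.81 and 6.54 in Ets1++ NK cells, and 5.65 and 5.78 in Ets1-- NK cells. Both CD4 T arrays thus stood above the other 18 arrays, and both Ets1-- NK arrays stood below the rest. The actin excess was also at its lowest in CD4 T cells and at its highest in GMP, and its part in these levels was not tested.

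**Figure D1:**
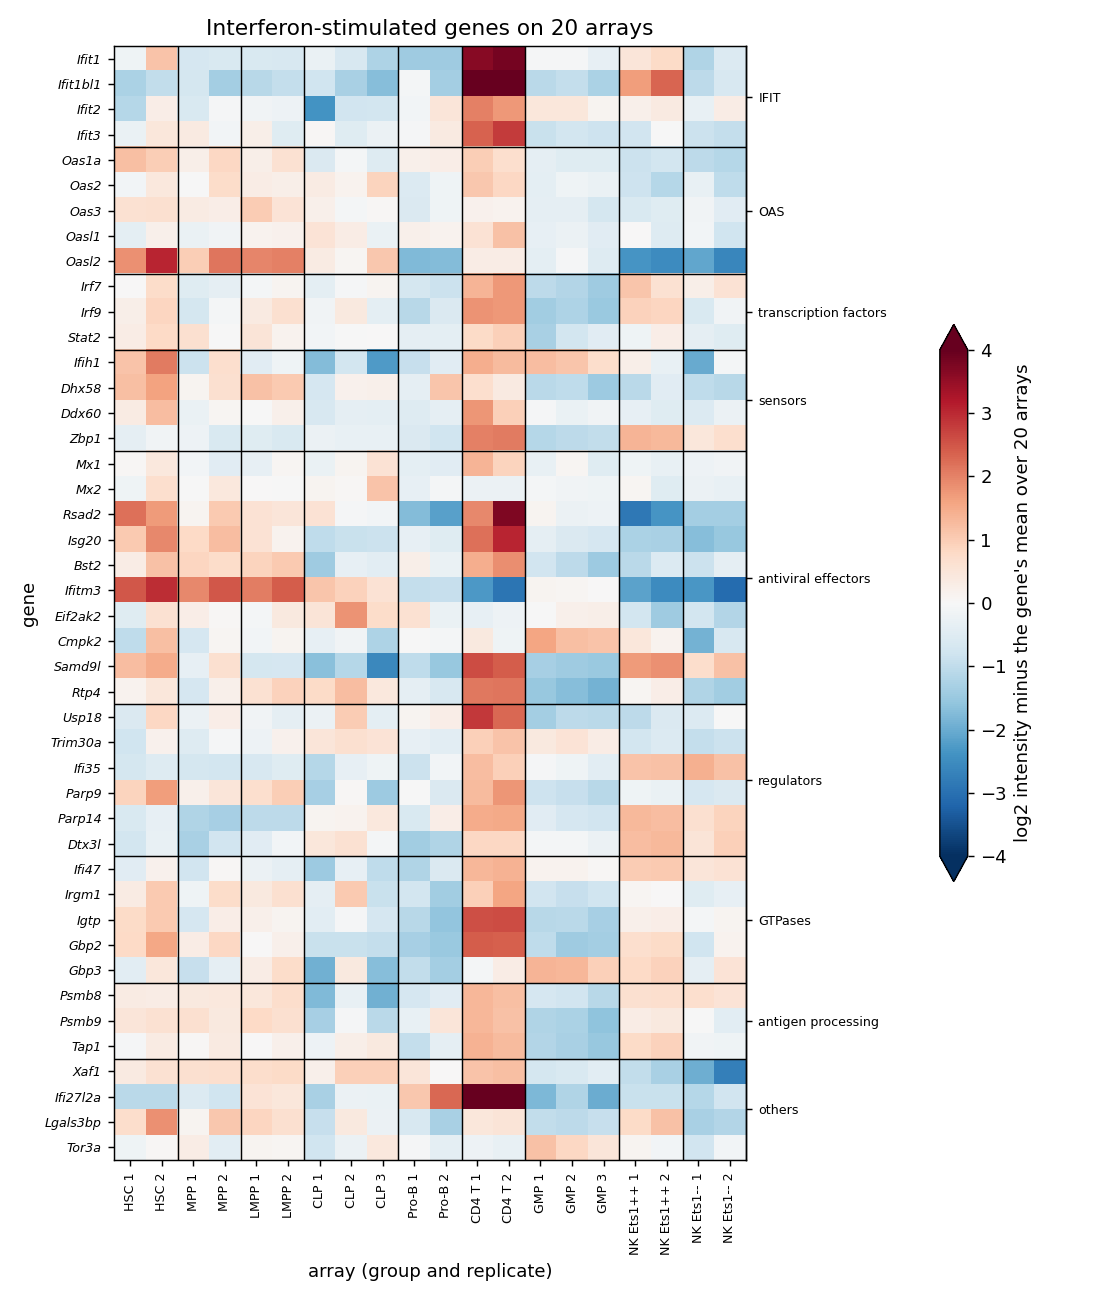
Log2 intensity of each of the 44 genes (rows, grouped by role) on each of the 20 arrays (columns, grouped by population), minus the gene's mean over the 20 arrays; red is higher, blue lower, and the colour scale is cut at its ends. Both CD4 T columns are red for most rows; in the Ifitm3 row they are blue and the HSC columns red.

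On both CD4 T arrays 24 of the 44 members lay above each of the other 18 arrays, as 7.06% of all tested genes did. This holds for the probe sets used, and other probe sets of some members, such as Psmb8, Xaf1, Zbp1 and Parp14, did not give it. That of Psmb8 lay at 6.76 and 6.996 in CD4 T and 7.80 to 8.23 in NK cells. Those of Zbp1 and Parp14 lay at 5.45 and 6.05 and at 5.935 and 6.195 in CD4 T cells. In Ets1++ NK cells they lay at 6.11 and 6.03 and at 6.31 and 5.91. The IFIT genes, whose products bind viral RNA, were all 4 among the 24. Ifit1 lay at 8.14 and 8.32 in CD4 T cells, and the other 18 arrays ran from 3.06 through a median of 3.91 to 5.62. Ifit1bl1, a close relative of Ifit1, lay at 11.31 and 11.92, and the other arrays ran from 3.63 through 4.32 to 7.67. The upper end of the others was set by HSC array 2 for Ifit1 and by an Ets1++ NK array for Ifit1bl1. Ifit3 lay at 7.19 and 7.61 against 3.88, 4.57 and 5.26 for the lowest, median and highest of the others. Ifit2 had a narrower margin, at 9.20 and 8.93 against 4.78, 7.10 and 7.67.

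Among the transcription factors, Irf7, which amplifies the type I response, lay at 7.07 and 7.45 in CD4 T cells and at no more than 6.82 elsewhere. Irf9, the DNA-binding partner of Stat2, lay at 9.16 and 9.11 against 5.89, 7.22 and 8.29 for the lowest, median and highest of the other 18 arrays. GMP arrays held the lowest levels of both: 4.67, 4.54 and 4.29 for Irf7 and 5.98, 6.14 and 5.89 for Irf9. Below all other arrays on the 3 GMP arrays were 5 members (2.53% of tested genes): Irf7, Irf9, the nucleic acid sensor Zbp1, Rtp4 and the peptide transporter Tap1. Zbp1 lay at 7.47 and 7.56 in CD4 T cells, at 6.81 and 6.76 in Ets1++ NK cells, and at 4.34, 4.41 and 4.49 in GMP.

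Of the 10 antiviral effectors 5 lay above all other arrays in CD4 T cells (Mx1, Isg20, Bst2, Samd9l and Rtp4), and of the 6 regulators 3 did (Usp18, Trim30a and Parp14). Isg20, an exonuclease that degrades RNA, lay at 9.01 and 9.83 in CD4 T cells, at 7.83 and 8.72 in HSC and at 5.08 to 5.53 in NK cells. Samd9l, a restriction factor for viral translation, lay at 10.78 and 10.58 in CD4 T cells, followed by Ets1++ NK cells at 9.88 and 9.98 and HSC at 9.41 and 9.66. Ifi27l2a lay at 10.55 on both CD4 T arrays and at 6.79 and 7.99 in pro-B cells. All 4 NK arrays lay between 4.56 and 4.94, well below pro-B cells. Usp18, which removes the modifier Isg15 from proteins and dampens interferon receptor signalling, lay at 7.93 and 7.39 in CD4 T cells against 3.75, 4.81 and 6.13 for the others. Rsad2, whose product viperin blocks the replication of many viruses, was high but uneven in CD4 T cells at 8.48 and 10.30, and HSC array 1 at 8.76 lay between these.

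Of the 5 GTPases, which act on vacuoles of intracellular pathogens, 3 lay above all other arrays in CD4 T cells (Ifi47, Igtp and Gbp2), as did all 3 antigen-processing genes. Igtp lay at 10.33 and 10.35 in CD4 T cells against 6.20, 7.70 and 8.82 for the lowest, median and highest of the other arrays. Gbp2 lay at 9.99 and 9.96 against 6.10, 7.21 and 9.14. Tap1, which carries peptides to MHC class I molecules, lay at 10.63 and 10.51 against 7.72, 9.23 and 10.16, so Ets1++ NK cells (10.03 and 10.16) came close. The immunoproteasome subunit gene Psmb8 lay at 10.92 and 10.81 against 7.69, 9.91 and 10.31. Ifi47 had its CD4 T arrays at 12.45 and 12.51 and both Ets1++ NK arrays at 12.11 and 12.14.

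HSC held the highest mean of 6 members: Oas1a, Oasl2, Ifih1, Dhx58, Ifitm3 and Lgals3bp. Both HSC arrays lay above each of the other 18 arrays for 3 of them, Oas1a, Dhx58 and Ifitm3, a share of members near that of all tested genes (5.92%). Ifitm3, which blocks the fusion of viruses with cell membranes, lay at 10.46 and 10.90 in HSC, 9.88 and 10.45 in MPP and 9.999 and 10.38 in LMPP. It was 9.08, 8.86 and 8.53 in CLP, 8.07, 8.03 and 7.98 in GMP, no more than 7.05 in pro-B cells, and 5.65 and 5.04 in CD4 T cells, within the 4.88 to 5.83 of NK cells. CD4 T cells, the highest group for most members, were thus near the bottom for this one. Dhx58, whose product LGP2 tunes RNA sensing, lay at 7.002 and 7.42 in HSC, with the LMPP arrays at 6.98 and 6.85 and pro-B array 2 at 6.94 just below. Oasl2 lay at 6.40 and 7.60 in HSC, 4.86 and 4.88 in CD4 T cells and 1.96 to 2.48 in NK cells. Ifih1, whose product MDA5 senses long double-stranded RNA, lay at 8.84 and 9.78 in HSC, overlapping CD4 T cells at 9.17 and 8.97 and GMP at 8.95, 8.84 and 8.43. HSC arrays also differed in erythroid markers: Car1 lay at 8.74 on array 1 and 11.85 on array 2, and the part of this in the HSC values was not tested.

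**Figure D2:**
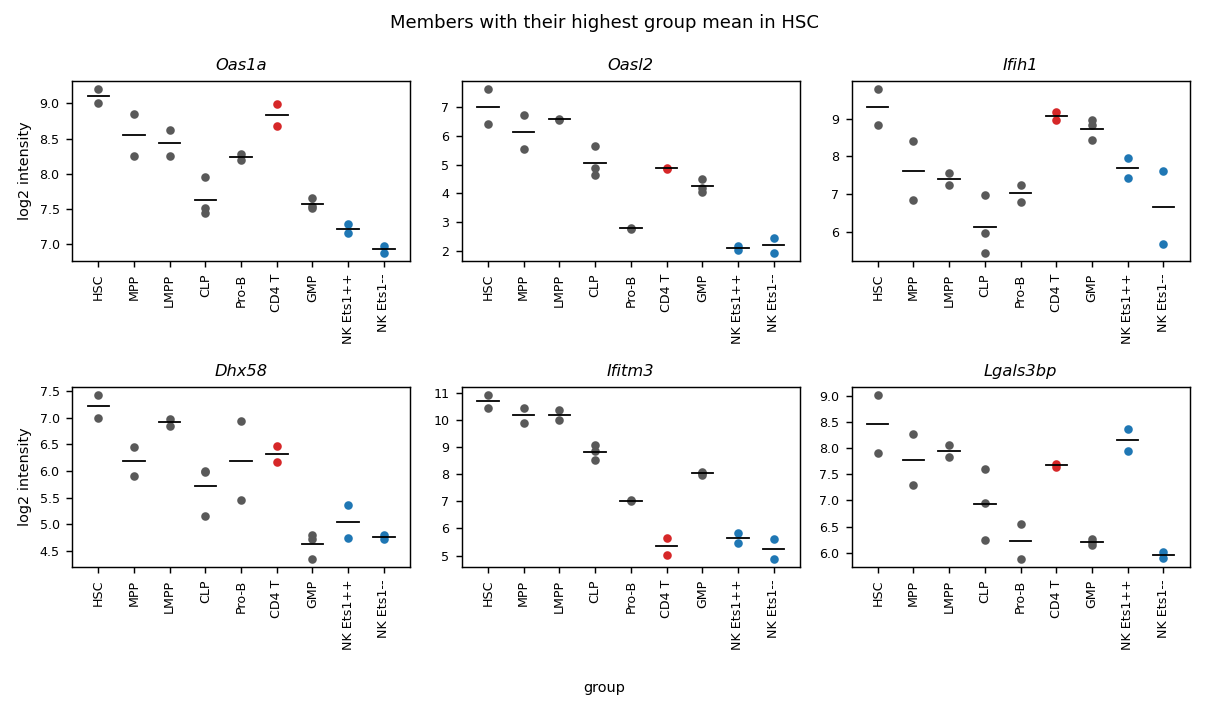
Log2 intensity (vertical axes) of the 6 members with their highest group mean in HSC, in each of the 9 groups; points are arrays, lines are group means, CD4 T cells are red and NK cells blue. Ifitm3 falls from 10.46 and 10.90 in HSC to 5.65 and 5.04 in CD4 T cells, while Ifih1 is about as high in CD4 T cells and GMP as in HSC.

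GMP had the highest mean of Cmpk2, Gbp3 and Tor3a, and its 3 arrays lay above the other 17 for the latter pair (6.75% of tested genes). Gbp3 lay at 9.41, 9.36 and 9.01 in GMP, with Ets1++ NK cells next at 8.85 and 8.97. Tor3a, a torsin ATPase, lay at 6.74, 6.42 and 6.05 in GMP, and at 6.00 on CLP array 3. Cmpk2, a nucleotide kinase of mitochondria, lay at 7.61, 7.21 and 7.18 in GMP, and HSC array 2 at 7.23 lay among these.

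The comparison the study was made for set Ets1-- against Ets1++ NK cells. Of the 44 members 7 were lower in Ets1-- NK cells and 0 higher (limma adjusted p below 0.05), where 2.23% of tested genes fell and 1.59% rose. At an unadjusted p below 0.05 there were 11 lower and 1 higher, beside 7.25% and 5.68% of tested genes. The called members were the IFIT genes Ifit1 and Ifit1bl1, the transcription factor Irf9, the effector Rtp4, the peptide transporter Tap1, Xaf1, which binds an inhibitor of apoptosis, and the secreted glycoprotein Lgals3bp. Over all members 34 had a lower mean and 10 a higher one, with a median difference of -0.42 against 0.01 over all tested genes. For 28 of the 44 the 2 genotypes' arrays were fully apart, beside 55.4% of all tested genes. Oas1a, Isg20, Trim30a and Xaf1 lay lower on both Ets1-- arrays than on all other arrays of the series (4 members; 1.80% of tested genes). Ets1++ NK cells had the next lowest mean of each, at 7.22, 5.51, 8.31 and 5.79 against 6.92, 5.17, 8.03 and 4.58. Of these 4 members only Xaf1 was called between the genotypes. For Trim30a and Xaf1 the lowest place held on the probe set used and not on the other one. There Trim30a lay at 7.31 and 7.47 in Ets1-- NK cells and at 6.55 and 5.88 in pro-B cells.

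Ifit1bl1 lay at 7.02 and 7.67 in Ets1++ NK cells and at 4.28 and 4.70 in Ets1-- NK cells. The Ets1-- arrays were thus inside the range of the progenitor arrays (3.63 to 4.64) or just above it, and the Ets1++ arrays were above every array but those of CD4 T cells. The difference was -2.85 ± 0.39 (SE; limma adjusted p = 0.000142), a ratio of 0.139. Lgals3bp lay at 7.95 and 8.36 against 5.90 and 6.01 (difference -2.20 ± 0.42; limma adjusted p = 0.00362). Ets1++ NK cells were within the range of HSC for this gene, and Ets1-- NK cells within that of pro-B cells. Ifit1 lay at 4.97 and 5.24 against 3.28 and 3.94 (-1.50 ± 0.35, limma adjusted p = 0.0189). The Ets1-- signal of 3.28 was below the median of its array, so this difference is not an exact size.

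Rtp4 lay at 7.31 and 7.49 in Ets1++ and at 6.04 and 5.84 in Ets1-- NK cells (-1.46 ± 0.32; limma adjusted p = 0.0109). Irf9 lay at 8.29 and 8.23 against 6.77 and 7.21 (-1.27 ± 0.32; limma adjusted p = 0.029). Tap1 lay at 10.03 and 10.16 against 9.11 and 9.07 (SE of the difference 0.27; limma adjusted p = 0.0465), close to the threshold. For Xaf1 the arrays lay at 5.96 and 5.63 against 4.97 and 4.19 (-1.21 ± 0.31; limma adjusted p = 0.0318). On its other probe set, brighter in NK cells, the gap was smaller, at 8.76 and 8.69 against 8.35 and 8.59. In each of these genes both Ets1-- arrays were below both Ets1++ arrays. Of the 7, the promoter windows of Ifit1 and Ifit1bl1 hold the motif, those of Irf9, Tap1, Xaf1 and Lgals3bp do not, and none was matched for Rtp4.

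**Figure D3:**
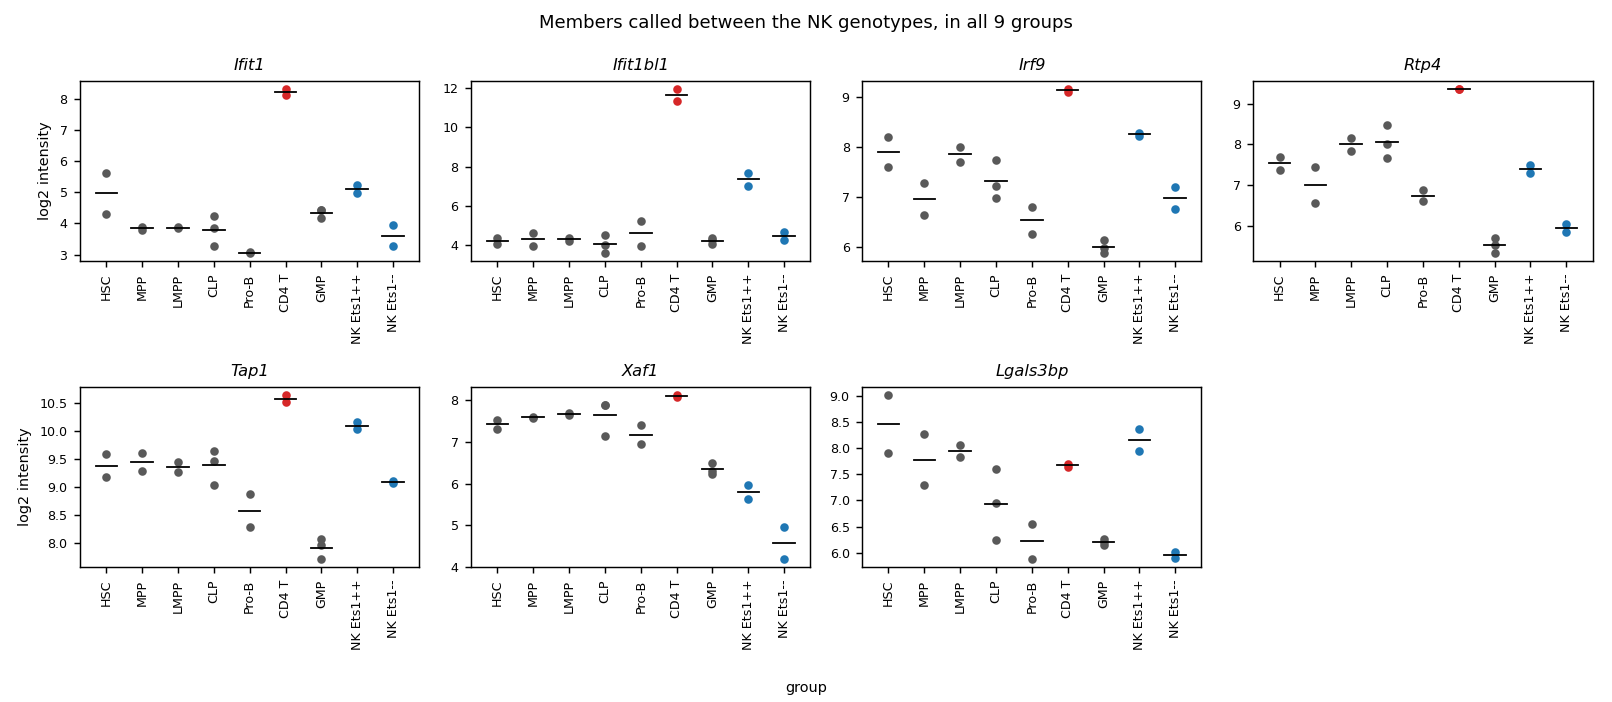
Log2 intensity (vertical axes) of the 7 members called between the NK genotypes, in each of the 9 groups; points are arrays, lines are group means, CD4 T cells are red and NK cells blue. In each panel both Ets1-- points lie below both Ets1++ points, with the widest gap for Ifit1bl1 (7.02 and 7.67 against 4.28 and 4.70).

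Members that were not called included Rsad2, with the largest positive difference: 3.72 and 4.21 in Ets1++ against 5.21 and 5.22 in Ets1-- NK cells (1.25 ± 0.45; limma adjusted p = 0.163). Its lower Ets1++ signal, 3.72, was below the median of that array. None of the 5 OAS genes passed, and their median difference was 0.10. Oas3 and Oasl2 lay below the array medians on all 4 NK arrays, so a fall in them could not be read. Of the IFIT genes 2 of 4 passed, of the transcription factors 1 of 3, of the antiviral effectors 1 of 10, and of the sensors, the regulators and the GTPases 0. Cmpk2 (-1.57 ± 0.54; limma adjusted p = 0.141) and Gbp2 (-1.03 ± 0.32; limma adjusted p = 0.0893) were lower without passing. Zbp1 lay at -0.75 without passing on the probe set used, while its other probe set gave -1.36 (limma adjusted p = 0.0344 over all probe sets).

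Of 41 tested genes of the wider interferon pathway, a list of ligands, receptors, kinases, factors, adaptors, inhibitors and MHC class I genes, 2 fell and 0 rose between the NK genotypes. They were Nlrc5, the activator of MHC class I transcription (8.79 ± 0.03 in Ets1++ and 7.25 ± 0.01 in Ets1-- NK cells, SD, n = 2; difference -1.54 ± 0.37; limma adjusted p = 0.0232), and Sting1, the adaptor for cytosolic DNA sensing (8.45 ± 0.04 and 7.30 ± 0.02, SD, n = 2; difference -1.15 ± 0.30; limma adjusted p = 0.0387). The arrays of the genotypes overlapped for interferon gamma itself. Ifng lay at 6.24 and 5.99 in Ets1++ and at 6.11 and 6.15 in Ets1-- NK cells, against no more than 3.40 on arrays other than CD4 T and NK. Whichever of the 4 NK arrays was left out, Nlrc5 and Sting1 lost their calls. The differences in these fits stayed at -1.56 to -1.51 for Nlrc5 and -1.17 to -1.12 for Sting1. Neither receptor genes nor kinases of the pathway passed (0 of 8 tested).

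Markers of other cell types moved with the genotype. Of 7 neutrophil precursor markers, Mpo, Elane, Prtn3, Ctsg and Ltf were lower in Ets1-- NK cells, and the mean level of the list was 8.31 and 8.40 on the Ets1++ arrays against 6.87 and 5.73 on the Ets1-- arrays. Of the plasmacytoid dendritic cell markers 1 of 7 passed (Tcf4, lower), of the monocyte and macrophage markers 1 of 6 (Lyz2, lower), of the erythroid markers 0 of 4 and of the NK markers 0 of 5. Kit, in the lists of HSC and of MPP and LMPP, was lower too (6.52 and 6.53 against 4.90 and 4.535). So was Il7r, in the lists of CLP and CD4 T cells (7.525 and 7.79 against 4.31 and 5.82). No other gene of these lists was called, and of the pro-B markers 0 of 4 passed. Siglech, which defines plasmacytoid dendritic cells, lay at 3.95 and 3.97 in Ets1++ and at 3.79 and 4.15 in Ets1-- NK cells, near the array median. GMP, in which the neutrophil precursor list was highest (9.54 to 9.76), had the lowest group means of Irf9, Rtp4 and Tap1. Other called members were not lowest there. Ifit1, Xaf1 and Lgals3bp had means of 4.35, 6.34 and 6.21 in GMP and of 3.61, 4.58 and 5.95 in Ets1-- NK cells. Within the marker list, Ngp lay at 7.89 to 8.29 in GMP and at 11.36 and 11.52 in Ets1++ NK cells. The actin excess was 2.90 and 2.76 in Ets1++ and 2.86 and 4.07 in Ets1-- NK cells. The part of neutrophil precursors, of other cells or of RNA quality in the 7 differences was not tested.

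Fewer members were called between the NK genotypes when 1 of the 4 arrays was left out. Such a fit leaves 1 array in a group and widens the SE. A call lost in it does not by itself show dependence on that array. Without Ets1++ replicate 1 the count fell from 7 to 2, without Ets1++ replicate 2 to 1, and without either Ets1-- replicate to 4. Ifit1bl1 kept its call each time, and Lgals3bp lost it only without Ets1++ replicate 2 (limma adjusted p = 0.0721). Irf9 (-1.05 to -1.49) and Tap1 (-0.93 to -1.07) lost theirs whichever array was left out, and Tap1 was -0.33 as the mean of its probe sets. Ifit1 kept its call only without Ets1-- replicate 2, Rtp4 only without Ets1-- replicate 1, and Xaf1 only without Ets1-- replicate 1. Repeated quantile normalization ended the Xaf1 call (limma adjusted p = 0.0622), as did fitting only the 4 NK arrays (limma adjusted p = 0.0612). Tap1 was not called without the filter on dim genes (limma adjusted p = 0.0605) or after median centring (limma adjusted p = 0.0687).

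Along the progenitor path, 1 member was called from HSC to MPP and 0 from MPP to LMPP. Parp14 lay below all other arrays in MPP, at 7.10 and 6.98 (1 member; 1.18% of tested genes). In MPP against HSC, 1 member fell and 0 rose, where 3.99% of tested genes fell and 1.94% rose. It was the GTPase gene Igtp, at 8.52 and 8.82 in HSC and 7.09 and 8.03 in MPP (-1.11 ± 0.31; limma adjusted p = 0.039), and it was not called without MPP replicate 1 (-0.64), HSC replicate 1 (-1.26) or HSC replicate 2 (-0.96). The members' median was -0.40 against -0.14 over all tested genes, and 12 were lower at an unadjusted p below 0.05 (beside 13.9% of tested genes) and 0 higher (5.62%). Arrays were apart for 20 members, beside 46.9% of tested genes. Of all called genes 32.7% were higher in MPP, and 46.5% after repeated quantile normalization. Ifngr2, a receptor chain for interferon gamma, rose by 2.26 ± 0.56 (limma adjusted p = 0.0209) and the DNA sensor gene Cgas by 1.24 ± 0.30 (limma adjusted p = 0.0177). The Ifngr2 signals in HSC (3.61 and 3.46) were below the array medians. The factor gene Irf1 changed by -1.29 ± 0.28 (limma adjusted p = 0.00944). As the mean of its probe sets Ifngr2 was 0.95 and not called. Cgas was not called in any of the 4 fits that left out 1 array (limma adjusted p = 0.0639 to 0.132). Ifngr2 was called in only 1 of these fits (without MPP replicate 2), and Irf1 was not called without HSC replicate 1 or MPP replicate 2. Irf1 and Cgas were not called in a fit on these 4 arrays alone.

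In LMPP against MPP limma called 0 of the 44, where 0.942% of tested genes rose and 0.772% fell; at an unadjusted p below 0.05 there were 6 higher and 2 lower (5.11% and 3.64% of tested genes), and arrays were apart for 18 members, beside 43.7% of tested genes. The largest differences were those of Ifi27l2a (5.15 and 4.90 in MPP, 6.24 and 6.15 in LMPP; 1.17 ± 0.38; limma adjusted p = 0.201) and Gbp3 (7.12 and 7.69 against 8.35 and 8.77; 1.16 ± 0.54; limma adjusted p = 0.558). In the wider pathway 3 genes rose and 0 fell. Irf8, a factor of the myeloid and dendritic lineages, rose by 4.20 ± 0.37 (limma adjusted p = 2.27e-06), the RNA sensor gene Tlr7 by 1.85 ± 0.37 (limma adjusted p = 0.00808) and Sting1 by 1.45 ± 0.30 (limma adjusted p = 0.0131). Irf8 kept its call without any single array. Tlr7 lost it without MPP replicate 1 or LMPP replicate 2 and as the mean of its probe sets (0.83; limma adjusted p = 0.0623). Sting1 lost it without MPP replicate 2, LMPP replicate 1 or LMPP replicate 2 and after repeated quantile normalization (limma adjusted p = 0.0587).

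LMPP arrays were then the reference for CLP, GMP and pro-B cells, so these 3 comparisons share samples. In CLP 14 members fell and 1 rose, where 19.2% of tested genes fell and 6.96% rose, so the share that fell was not far above the background. The median was -0.54 against -0.08 over all tested genes, and arrays were apart for 26 members, beside 46.3% of tested genes. Of all called genes 26.6% were higher in CLP, and 43.3% after repeated quantile normalization. The largest falls were those of the immunoproteasome gene Psmb8 (10.06 and 10.31 in LMPP against 7.82, 9.31 and 7.69 in CLP; -1.91 ± 0.34; limma adjusted p = 0.000636), Parp9 (-1.74 ± 0.37; limma adjusted p = 0.00229), Bst2, which tethers budding virions (-1.69 ± 0.35; limma adjusted p = 0.00192), and Gbp3 (-1.59 ± 0.50; limma adjusted p = 0.0242). Psmb8 was lower on CLP arrays 1 and 3 than on array 2, and the actin excess of those arrays was larger (5.20 and 5.27 against 3.26). Oas1a, Oas3, Oasl2, Dhx58, Isg20, Ifitm3, Samd9l, Gbp2, Psmb9 and Ifi27l2a fell by less, with differences between -1.53 and -0.72. Parp14, an ADP-ribosyltransferase, rose from 7.26 and 7.27 in LMPP to 8.43, 8.46 and 8.72 in CLP (1.27 ± 0.25; limma adjusted p = 0.00154). With CLP array 2 as the only CLP array, an alternative added after the data were seen, 3 members fell and 2 rose. Psmb9 was then -0.76, Gbp3 -0.12 and Samd9l -0.46, none of them called. Without LMPP replicate 1 or 2 the number that fell was 6. As the mean of its probe sets Dhx58 was -0.30 and not called. In a fit on the arrays of CLP and LMPP alone limma called 0 members in either direction. Of the pathway list 5 rose and 7 fell, among them the signalling inhibitor gene Socs3 (-2.98 ± 0.50; limma adjusted p = 0.00042), the RNA-sensing adaptor gene Mavs (2.04 ± 0.33; limma adjusted p = 0.000289) and Irf4 (1.97 ± 0.33; limma adjusted p = 0.000348). The Irf4 signals in LMPP were below the array medians.

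In GMP against LMPP 21 members fell and 0 rose, where 13.0% of tested genes fell and 16.0% rose. The members' median was -0.80 against -0.04 over all tested genes, and arrays were apart for 40 members, beside 69.5% of tested genes. All 3 transcription factors fell: Irf7 by 1.23 ± 0.27 (limma adjusted p = 0.00179), Irf9 by 1.86 ± 0.29 (limma adjusted p = 0.000101) and Stat2 by 1.16 ± 0.28 (limma adjusted p = 0.00385). All 3 antigen-processing genes fell too, led by Psmb9 (9.86 and 9.72 in LMPP against 7.89, 7.80 and 7.48 in GMP; -2.07 ± 0.32; limma adjusted p = 8.27e-05). The largest fall was that of Rtp4, from 7.85 and 8.16 to 5.71, 5.53 and 5.34 (-2.48 ± 0.29; limma adjusted p = 3.72e-06). None of the 4 IFIT genes passed. Ifih1 (1.33 ± 0.52; limma adjusted p = 0.0642) and Cmpk2 (1.31 ± 0.50; limma adjusted p = 0.0552) were higher in GMP without passing; in a fit on the GMP and LMPP arrays alone 10 members rose. At an unadjusted p below 0.05 there were 3 higher and 25 lower, beside 20.8% and 17.8% of tested genes. Stat2 lost its call without LMPP replicate 1, Oas1a without LMPP replicate 2, and Irgm1 and Isg20 in 4 of the 5 fits that left out 1 array. Psmb8 lost it without LMPP replicate 2 and as the mean of its probe sets (-0.50). The other called members were Oas1a, Oas3, Oasl2, Dhx58, Isg20, Bst2, Ifitm3, Parp9, Irgm1, Igtp, Gbp2, Psmb8, Tap1, Xaf1, Ifi27l2a and Lgals3bp, with differences between -2.31 and -0.87. Of the pathway list 17 fell and 7 rose, and 6 of 7 tested MHC class I genes were among those that fell, with H2-K1 at -2.64 ± 0.22 (limma adjusted p = 6.61e-08). Socs3 fell by 6.18 ± 0.50 (limma adjusted p = 3.74e-08) and Sting1 by 2.19 ± 0.28 (limma adjusted p = 9.77e-06). The Socs3 signals in GMP (3.21, 3.68 and 2.86) were below the array medians, so its fall is not an exact size. The actin excess was 6.44 to 6.68 in GMP and 1.92 to 2.10 in LMPP, and its part in these differences was not tested.

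In pro-B cells against LMPP 13 members fell and 2 rose, where 10.3% of tested genes fell and 6.91% rose. The median was -0.61 against -0.06 over all tested genes, and arrays were apart for 35 members, beside 59.6% of tested genes. Ifit1 lay lowest in pro-B cells, at 3.06 and 3.07 (1 member; 2.46% of tested genes had both pro-B arrays lowest), but these signals are below the array medians. Oasl2 lay at 6.53 and 6.58 in LMPP and at 2.79 and 2.82 in pro-B cells, below those arrays' medians (-3.75 ± 0.39; limma adjusted p = 1.27e-06). Ifitm3 (-3.17 ± 0.32; limma adjusted p = 8.78e-07) and Rsad2 (7.13 and 7.06 against 4.83 and 4.40; -2.48 ± 0.45; limma adjusted p = 0.000542) were next. Of the 5 GTPases 4 fell: Gbp3 (-1.68), Irgm1 (-1.57), Gbp2 (-1.52) and Igtp (-1.495). Oas3, Irf9, Rtp4, Dtx3l, Psmb8 and Lgals3bp fell by 1.00 to 1.73. Parp14 (0.88 ± 0.28; limma adjusted p = 0.0341) and Ifi27l2a (1.20 ± 0.38; limma adjusted p = 0.0362) rose, and neither was called without LMPP replicate 1, LMPP replicate 2 or pro-B replicate 2. The number that fell was 7 without LMPP replicate 2. Gbp3 and Psmb8 lost their calls whichever of the 4 arrays was left out, Irgm1 and Dtx3l in 3 of these 4 fits, and Irf9, Rtp4 and Lgals3bp in 2. Of the pathway list 19 fell and 1 rose, including 5 of 8 receptors and kinases and 6 of 7 MHC class I genes. Socs3 fell by 5.84 ± 0.55 (limma adjusted p = 3.41e-07), Irf4 rose by 5.53 ± 0.36 (limma adjusted p = 2.13e-09), and the difference of Cgas was -3.16 ± 0.30 (limma adjusted p = 3.57e-07). The Socs3 signals in pro-B cells and the Irf4 signals in LMPP were below the array medians.

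**Figure D4:**
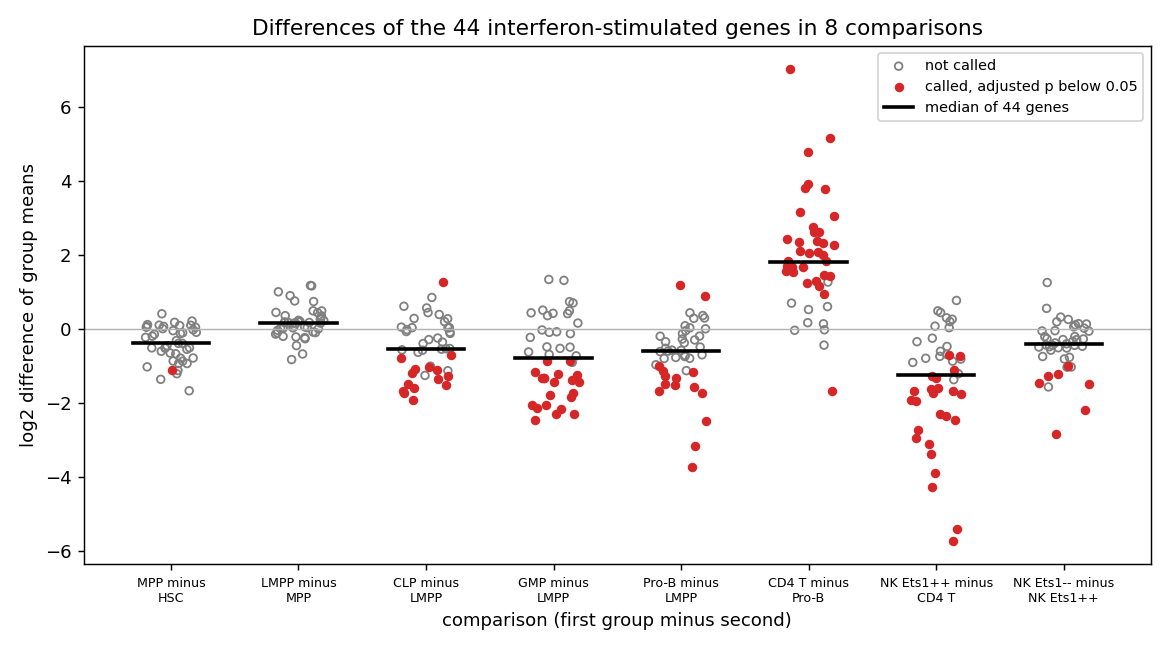
Difference of group means in log2 units (vertical axis) for each of the 44 genes in the 8 comparisons (horizontal axis, first group minus second); filled red points passed the limma test at an adjusted p below 0.05, open points did not, and bars are medians. The bar of CD4 T minus pro-B cells stands at 1.82, with 34 red points above 0 and 1 below.

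CD4 T cells were set against pro-B cells, the other wild-type population of committed lymphocytes. Of the 44 members 34 were higher in CD4 T cells and 1 lower, where 17.0% of tested genes rose and 11.8% fell. The median was 1.82 against 0.00 over all tested genes, and arrays were apart for 39 members, beside 63.1% of tested genes. Of all called genes 59.0% were higher in CD4 T cells, and 48.5% after repeated quantile normalization. All 4 IFIT genes, all 3 transcription factors, all 6 regulators and all 3 antigen-processing genes rose. Ifit1bl1 differed by 7.01 ± 0.39 (limma adjusted p = 1.06e-10), a ratio of 129, and Ifit1 by 5.16 ± 0.35 (limma adjusted p = 1.74e-09), the latter against pro-B signals below the array medians. Rsad2 (4.78 ± 0.45; limma adjusted p = 9.54e-08), Igtp (3.93 ± 0.31; limma adjusted p = 9.58e-09), Gbp2 (3.80 ± 0.32; limma adjusted p = 2.61e-08) and Samd9l (3.77 ± 0.38; limma adjusted p = 2.64e-07) came next. The other members that rose were Ifit2, Ifit3, Oas2, Oasl2, Irf7, Irf9, Stat2, Ifih1, Ddx60, Zbp1, Mx1, Isg20, Bst2, Rtp4, Usp18, Trim30a, Ifi35, Parp9, Parp14, Dtx3l, Ifi47, Irgm1, Psmb8, Psmb9, Tap1, Xaf1, Ifi27l2a and Lgals3bp, by 0.93 to 3.16 log2 units. Ifitm3 was the member that fell (-1.68 ± 0.32; limma adjusted p = 0.000459). Oas1a (0.60 ± 0.27; limma adjusted p = 0.112), Oas3, Oasl1, Dhx58, Mx2, Eif2ak2, Cmpk2, Gbp3 and Tor3a did not pass. Leaving out 1 array at a time left 28 to 32 members higher. The members that lost their call in some of these fits were Ifit2, Oas2, Ifih1, Psmb9, Xaf1 and Lgals3bp. As means of their probe sets Stat2 (0.65), Tap1 (0.41) and Xaf1 (0.41) were not called.

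The wider pathway moved with them: 26 of 41 tested genes rose and 2 fell. Of the receptors and kinases 7 of 8 rose, and of the MHC class I genes 7 of 7. Socs3, which is induced by cytokine signalling, differed by 6.23 ± 0.55 (limma adjusted p = 4.83e-08), the kinase gene Ikbke by 4.68 ± 0.30 (limma adjusted p = 7.13e-10) and Ifngr2 by 3.47 ± 0.56 (limma adjusted p = 7.97e-05). The Socs3 signals in pro-B cells (3.51 and 3.66) were below the array medians. Ifng lay at 5.76 and 5.66 in CD4 T cells and at 2.44 and 2.95 in pro-B cells. Ifnb1, a type I interferon gene, lay at 3.20 and 3.43 in CD4 T cells and at 3.26 and 3.61 in pro-B cells, below the array median in both. Markers of other cells were read beside this. Of 7 plasmacytoid dendritic cell markers Ccr9 and Pacsin1 rose and Tcf4 fell, the list's mean was 5.87 and 5.62 in CD4 T cells against 4.93 and 5.30 in pro-B cells, and Siglech lay at 5.54 and 4.27 in CD4 T cells. Of 6 monocyte and macrophage markers Lyz2 and Csf1r rose, and the list's mean was 5.48 and 5.46 against 4.64 and 4.40. Of 5 NK markers Prf1, Eomes and Tbx21 rose. Of 4 erythroid markers Alas2 rose, and of 7 neutrophil precursor markers 0 did. The part of such cells in the CD4 T values was not tested.

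Ets1++ NK cells were set against CD4 T cells, a comparison that shares the CD4 T arrays with the one before. Strain, Rag2 genotype and cell type differ together here and cannot be told apart. In NK cells 24 members were lower and 0 higher, where 10.2% of tested genes fell and 14.3% rose. The median was -1.25 against 0.02 over all tested genes, and arrays were apart for 40 members, beside 69.5% of tested genes. Rsad2 lay below all other arrays in Ets1++ NK cells (1 member; 3.08% of tested genes), and Dtx3l above them (1 member; 5.85%). Ifi27l2a lay at 4.81 and 4.82 in Ets1++ NK cells and at 10.55 on both CD4 T arrays (-5.74 ± 0.38; limma adjusted p = 1.52e-09). Rsad2 (-5.43 ± 0.45; limma adjusted p = 2.42e-08), Ifit1bl1 (-4.27 ± 0.39; limma adjusted p = 9.26e-08), Isg20 (-3.91 ± 0.32; limma adjusted p = 2.47e-08) and Usp18 (-3.38 ± 0.44; limma adjusted p = 9.11e-06) followed. All 4 IFIT and all 5 OAS genes were lower. None of the 3 transcription factors and none of the 3 antigen-processing genes passed, with Irf9 at -0.88 ± 0.32 (limma adjusted p = 0.0536). The remaining called members were Dhx58, Ddx60, Zbp1, Mx1, Bst2, Rtp4, Trim30a, Parp9, Igtp, Gbp2 and Xaf1, with differences between -2.48 and -0.73. In Ets1++ NK cells Oas3, Oasl2, Ddx60 and Mx1 lay below the array medians, as did Rsad2 on array 1 (3.72). The differences of these members are therefore not exact sizes. At an unadjusted p below 0.05 there were 30 lower and 0 higher, beside 15.3% and 19.1% of tested genes. Ifit2, Oas3 and Zbp1 lost their calls whichever of the 4 arrays was left out, Dhx58 in 3 of these 4 fits, Oasl1 in 2 and Parp9 in 1. Of the pathway list 9 fell and 5 rose, and Ifngr2 (-4.60 ± 0.56; limma adjusted p = 4.12e-06), Irf4 (-3.24 ± 0.36; limma adjusted p = 1.12e-06) and Ikbke (-2.83 ± 0.30; limma adjusted p = 6.76e-07) had the largest differences. In Ets1++ NK cells the signals of Ifngr2 (3.07 and 3.29) and Irf4 (3.05 and 3.18) were below the array medians. All 7 neutrophil precursor markers were higher in Ets1++ NK cells (list means 8.31 and 8.40 against 3.83 and 4.26), and their part in these differences was not tested.

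The choice of probe set mattered for a few members. Several probe sets were annotated to 17 of the 44, with 24 besides those used. Between the NK genotypes 16 of the 24 had the sign of the probe set used, and none of the others was called with the opposite sign (0 of 24). In MPP against HSC 11 of 24 had the same sign. In CLP against LMPP other probe sets of Ifi35 (-1.44; limma adjusted p = 0.00978 over all probe sets) and Trim30a (-1.18; limma adjusted p = 0.0434 over all probe sets) were called against the sign of those used, and in GMP against LMPP 1 of Dtx3l was (-1.01; limma adjusted p = 0.0245 over all probe sets). For Ets1++ NK cells against CD4 T cells 13 of 24 had the same sign and 3 were called with the opposite one, on Xaf1, Dtx3l and Psmb8. The probe set used for Xaf1 lay at 5.96 and 5.63 in Ets1++ NK cells and at 8.08 and 8.12 in CD4 T cells (-2.30 ± 0.31; limma adjusted p = 1.44e-05). The other Xaf1 probe set lay at 8.76 and 8.69 in Ets1++, at 8.35 and 8.59 in Ets1-- NK cells, and at 2.71 to 3.67 on the 16 arrays of C57bl/6 mice (Ets1++ NK minus CD4 T 5.82; limma adjusted p = 1.53e-11 over all probe sets). The direction for Xaf1 in that comparison therefore rests on the probe set. Dtx3l gave 0.44 on the probe set used, not called, and -0.99 on the other (limma adjusted p = 0.0458 over all probe sets). Psmb8 gave -0.61, not called, and 1.28 (limma adjusted p = 0.0415 over all probe sets).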

How the data were processed

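RNA of 20 samples in 9 groups was hybridised to Affymetrix mouse arrays. For 45101 probe sets the authors deposited a linear intensity on each array, made with RMA per the submitters' processing notes (version not given in the sources used here). Since the planned design had assumed log2 values, the log2 of the deposited intensities was taken. Of the probe sets 34958 had 1 gene symbol, 932 several and 9211 none here, and 34754 matched RefSeq genes of GRCm38.p6 by Entrez ID. A gene was tested if 2 or more arrays had it above their median (13479 genes; 4715 were dim). The comparisons used limma 3.58.1 (R 4.3.3; lmFit, then eBayes with trend) in 1 model with 11 residual degrees of freedom, with Benjamini-Hochberg adjustment over all tested genes. A log2 difference is given with its SE, a level with its SD, and a ratio or fold as a power of 2 computed from the log2 difference of the deposited values. The members and lists were chosen with earlier results of these data known. Each called member was named, or the 2 largest differences where none was called, and up to 3 called pathway genes per comparison; genes named outside this rule were chosen after their values were seen. Of 51 pathway genes 45 were found and 41 tested; the rest were not analysed here. Scripts were first tested on simulated data. The 2 or 3 arrays per group limit the precision. The model pools the spread of a gene over the 9 groups, so an SE is not the spread of the groups compared. The root mean square SD over tested genes ran from 0.17 in GMP to 0.56 in CLP. No pair of arrays held identical values. Alternatives changed the filter, the probe set, the intensity trend, the scaling, the arrays in the fit, the replicate number as a block, and left out each replicate. In a group of 2 arrays the last of these left 1 array and widened the SE, so a call lost there can reflect the smaller number of arrays.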

Additional observations from a re-analysis of the deposited data

How the results depend on the processing

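Of the counts of called members recomputed under alternatives, 172 stayed within 1.5 times the main count, 14 were larger and 19 smaller. The 172 include counts that were 0 in the main fit and stayed 0, such as those of LMPP against MPP. Fits on the arrays of the compared groups alone gave 1 member higher between the NK genotypes, 0 lower in MPP against HSC, 0 higher and 0 lower in CLP against LMPP, 10 higher in GMP, 1 higher in pro-B cells and 2 higher in Ets1++ NK against CD4 T cells. The replicate number as a block gave 5 lower in place of 1 in MPP against HSC, 2 higher in CLP and 2 higher in GMP, and changed no other count beyond 1.5 times; the deviations of same-numbered arrays correlated at -0.021 to 0.368, and 2 pairs per comparison with no shared source in the labels do not settle whether the numbers pair the arrays. Averaging the probe sets of each gene gave 1 higher in GMP, 1 higher in pro-B cells and 1 higher in Ets1++ NK against CD4 T cells, and turned Xaf1 there from -2.30 to 1.76; its probe sets disagree. Repeated quantile normalization gave 3 higher in CLP and 1 higher in pro-B cells, and a stricter filter 1 higher in GMP. CLP array 2 alone, added after the data were seen, gave 2 higher and 3 lower in CLP. Leaving out 1 replicate gave 1 to 4 lower between the NK genotypes, 0 to 4 lower in MPP, 6 to 21 lower and 1 to 2 higher in CLP, 17 to 20 lower in GMP, 7 to 9 lower and 0 to 2 higher in pro-B cells, 28 to 32 higher in CD4 T cells, and 18 to 20 lower in Ets1++ NK cells. The cause was not tested beyond the smaller number of arrays. Between 40 and 43 members varied over the 9 groups. Over all called genes, the share that was higher moved under repeated quantile normalization from 32.7% to 46.5% in MPP against HSC, from 26.6% to 43.3% in CLP and from 59.0% to 48.5% in CD4 T cells, and median centring moved the median difference of all tested genes in CLP from -0.08 to -0.22.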

Other observations

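On the probe sets used, Dtx3l and Ifi35 were the members with their highest mean in NK cells. Dtx3l, an E3 ligase that pairs with Parp9, lay at 9.88 and 9.95 in Ets1++ NK cells, above the other 18 arrays, and at 9.17 and 9.62 in Ets1-- NK cells, which overlapped the CD4 T arrays at 9.47 and 9.49. Its other probe set lay at 6.85 and 7.08 in Ets1++ NK cells and at 7.98 and 7.93 in CD4 T cells. Parp9 lay at 7.76 and 7.70 in Ets1++ NK cells and at 9.20 and 9.73 in CD4 T cells, so the partners did not share their highest group. Ifi35 lay at 11.41 and 11.46 in Ets1++ and at 11.70 and 11.44 in Ets1-- NK cells, overlapping CD4 T cells at 11.51 and 11.23. On another of its probe sets CD4 T cells were higher, at 8.97 and 8.74 against 7.625 to 8.05 in NK cells. Its remaining probe set lay at 8.89 and 8.29 in CD4 T cells and at 8.66 to 8.92 in NK cells. The highest group of Ifi35 therefore rests on the probe set.

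The other Xaf1 probe set separated the 4 arrays of strain 129 from the 16 arrays of C57bl/6 mice (8.35 to 8.76 against 2.71 to 3.67). The other Psmb8 probe set had the same order, at 7.80 to 8.23 on the NK arrays and 4.98 to 6.996 on the others. Strain, Rag2 genotype and cell type cannot be told apart in this design.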
